A study of Mus musculus with 74 samples.

Results

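The transcripts described here are those of 9 genes that make, store, break down, carry or sense retinoic acid: Adh1, Dhrs3, Aldh1a1, Aldh1a2, Cyp26b1, Crabp1, Crabp2, Rara and Rarb. They were taken by gene symbol, from 16593 named genes on the array, and all 13 of their probes, among 25697, are reported, and none was removed for a low value. Transcript levels were measured in whole gonads cut away from the mesonephroi of XX and XY embryos of 2 inbred strains, 129S1/SvImJ (129S1) and C57BL/6J (B6), at 6 stages from E11.0 to E12.0, spaced by 4.8 h. Each of the 74 arrays held RNA from 1 pair of gonads, and no treatment or engineered allele is named in the labels. The 24 groups of strain, sex and stage held 3 arrays each, except 129S1 XY at E11.0 with 5, 129S1 XY at E12.0 with 2 and B6 XY at E11.2 with 4. Which embryos were littermates is not given, so no model holds a litter term. The p-values measure the spread between embryos of a group, and would be too small if littermates in a group are alike. In bulk tissue, fewer cells that express a gene and less RNA per cell cannot be told apart.

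Retinoic acid is made from vitamin A. Alcohol dehydrogenases such as Adh1 and related enzymes oxidize retinol to retinal, Dhrs3 reduces retinal back to retinol, and the retinaldehyde dehydrogenases Aldh1a1 and Aldh1a2 oxidize retinal to retinoic acid, which Cyp26b1 degrades. Crabp1 and Crabp2 bind it inside the cell, and Rara and Rarb are nuclear receptors that bind DNA with a retinoid X receptor and switch on genes once retinoic acid is bound. In the fetal mouse gonad the pathway is best known for the entry of germ cells into meiosis in the ovary, and Cyp26b1 for keeping retinoic acid low in the testis.

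Values are log2 intensities on a common scale, with array medians between 7.401 and 7.403. The mean correlation of an array with the others of its group lay between 0.974 and 0.991. Xist read between 9.71 and 11.08 on XX arrays and between 7.10 and 7.58 on XY arrays, and Eif2s3y between 6.83 and 7.28 on XX arrays and between 8.51 and 9.94 on XY arrays, so each array fell on the side of its labelled sex. The 3 probes of Y-linked genes read between 6.83 and 8.09 on XX arrays, which lack those transcripts. A value in that range thus does not by itself show a transcript. The upper part of the range rests on Uty alone, at 7.26 to 8.09 on XX arrays. Its probe did not separate the sexes, with 7.46 to 8.03 on XY arrays. Eif2s3y and Kdm5d reached at most 7.28 and 7.402 on XX arrays. The range used below is the whole one, from 6.83 to 8.09. All arrays of the group lay within it in 24 of 24 groups for Rara and Dhrs3, 17 for Cyp26b1, 16 for Rarb, 7 for Adh1, 5 for Crabp1, 4 for Crabp2, 3 for Aldh1a1 and none for Aldh1a2. A difference from such a group is one of measured log2 values, and no fold is given for it. The somatic markers Wt1, Gata4 and Nr5a1 had means of 13.18, 8.53 and 8.22 over all arrays. 1 array stood apart for these genes, B6 XY E11.2 replicate 1, and its values are given where they bear on a result.

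In XY gonads at E12.0, transcripts for the enzymes Aldh1a1 and Cyp26b1 were higher than in XX gonads, and those for the binding protein Crabp2 were lower, as were those for the receptor Rarb by 1 of its 3 probes. Over the 24 h before, with the strains averaged, Adh1, Crabp2 and Aldh1a2 fell in both sexes. Aldh1a1 and Cyp26b1 rose in XY gonads and did not pass the test in XX gonads. Within the strains these rises passed in 129S1 and not in B6. The XY fall of Adh1 passed in neither strain, and the XX fall of Aldh1a2 passed in B6 alone. Rara and Dhrs3 moved with neither sex nor stage in these tests. A linear model of the 24 group means was fitted to all probes with limma, and p-values were adjusted over all of them by the method of Benjamini and Hochberg, with a call at 0.05. The sex term was passed by 3 of the 9 genes, Cyp26b1, Aldh1a1 and Crabp2, against 4.89% of all probes. The stage term was passed by 6 of the 9, against 10.5% of all probes, and the strain term by 3, against 15.4%. The test of whether the sex difference changed with stage was passed by 1 gene, Aldh1a1, against 2.68% of all probes. No gene passed the terms for sex by strain, stage by strain or all 3 factors together (0.117%, 0.109% and 0.0272% of all probes), although at an unadjusted p under 0.05 Adh1 passed the sex by strain term, Adh1 and Aldh1a2 the stage by strain term and Rarb the last.

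**Figure D1:**
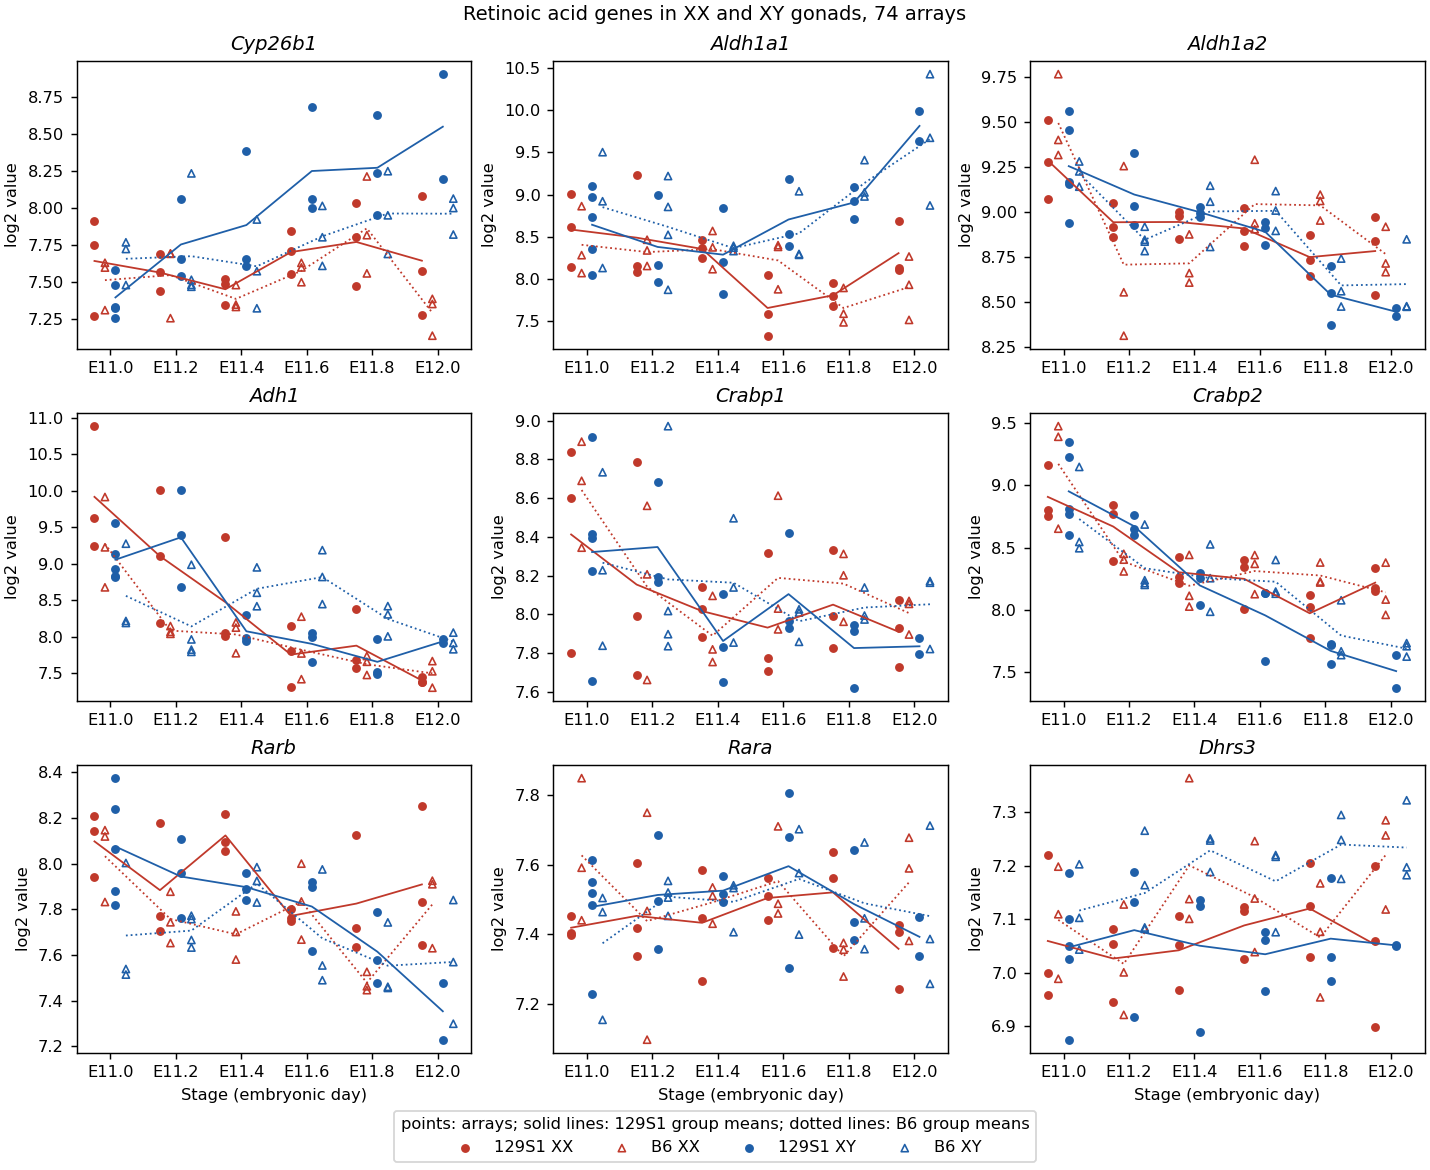
Log2 value (y axis of each panel, its own scale) of the 9 genes by stage (x axis) on 74 arrays, with filled circles for 129S1, open triangles for B6, red for XX and blue for XY, and lines through the group means. Aldh1a1 and Cyp26b1 end above their start in XY gonads, reaching 9.82 and 8.55 on average in 129S1 at E12.0. Over all XY arrays the Aldh1a1 mean first goes from 8.72 at E11.0 to 8.33 at E11.4. Adh1 and Crabp2 end below their start in both sexes. In B6 XY gonads Adh1 does not descend steadily, with means of 8.56 at E11.0, 8.82 at E11.6 and 7.94 at E12.0.

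Aldh1a1 lies on chromosome 19 (20492583-20643463, GRCm38.p6) and had the largest sex difference of the 9 genes at E12.0. At that stage its log2 values were 9.63 and 9.998 in 129S1 XY gonads and 8.87, 9.67 and 10.43 in B6 XY gonads. In XX gonads they were 8.11, 8.12 and 8.68 in 129S1 and 7.51, 7.93 and 8.27 in B6. All 5 XY arrays lay above all 6 XX arrays. The difference was 1.63 ± 0.25 on the log2 scale (SE; n = 5 XY and 6 XX; adjusted p = 1.7e-06), with 1.51 ± 0.37 in 129S1 (adjusted p = 0.0074) and 1.76 ± 0.33 in B6 (adjusted p = 0.00032). The call in 129S1 was lost without 129S1 XY E12.0 replicate 2 (adjusted p = 0.13).

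The Aldh1a1 difference opened after E11.4, when XY minus XX was -0.03 ± 0.23. At E11.6 it stood at 1.05 ± 0.33 in 129S1, where the XY values of 8.39, 8.53 and 9.19 lay above the XX values of 7.33, 7.59 and 8.05, and at 0.32 ± 0.33 in B6, where the sexes overlapped. Neither value passed the test at that stage (adjusted p = 0.17 and 1.00), and the strain difference of the sex difference was 0.73 with a 95% interval from -0.20 to 1.66 (adjusted p = 0.99). At E11.8 the difference averaged over strains was 1.29 ± 0.23 (adjusted p = 8.2e-05; 2.33% of all probes were called higher in XY at that stage). The XY values there were 8.71, 8.92 and 9.09 in 129S1 and 8.98, 9.03 and 9.41 in B6, against 7.68, 7.79 and 7.95 and 7.48, 7.59 and 7.89 in XX gonads, with no overlap in either strain. Averaged over strains, Aldh1a1 rose from E11.0 to E12.0 by 0.99 ± 0.24 in XY gonads (adjusted p = 0.0027). The change in XX gonads was -0.39 ± 0.23 (adjusted p = 0.46), and the XY change exceeded the XX change by 1.38 ± 0.33 (adjusted p = 0.0072). Within the strains the XY rise passed in 129S1 (2.4% of all probes rose there). It did not pass in B6, where the XY values at E11.0 were 8.13, 8.92 and 9.50.

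Cyp26b1, the enzyme that clears retinoic acid, lies on chromosome 6 (84571414-84593908, GRCm38.p6). Its log2 values at E12.0 were 8.19 and 8.90 in 129S1 XY gonads and 7.82, 7.998 and 8.06 in B6 XY gonads. In XX gonads they were 7.28, 7.57 and 8.08 in 129S1 and 7.14, 7.35 and 7.38 in B6. Within each strain every XY array lay above every XX array. Of these values only those of 129S1 XY gonads lay above the range read by Y-linked probes on XX arrays. The difference at E12.0 was 0.79 ± 0.16 (n = 5 XY and 6 XX; adjusted p = 0.00034), with 0.91 ± 0.23 in 129S1 (adjusted p = 0.014) and 0.67 ± 0.21 in B6 (adjusted p = 0.090, and 0.049 when B6 arrays were fitted alone). The call in 129S1 was lost without any 1 of 3 of its arrays (129S1 XX E12.0 replicates 2 and 3, 129S1 XY E12.0 replicate 1), with values from 0.55 to 1.26 over the arrays left out in turn. The 2 strains' differences were not shown to differ, their gap being 0.24 with a 95% interval from -0.40 to 0.87 (adjusted p = 0.99).

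Earlier, Cyp26b1 went in 129S1 XY gonads from 7.26, 7.32, 7.33, 7.48 and 7.58 at E11.0 to 8.001, 8.06 and 8.68 at E11.6, with no overlap between the stages. In B6 XY gonads it went from 7.48, 7.72 and 7.77 to 7.61, 7.80 and 8.01. The change to E12.0 was 1.15 ± 0.22 in 129S1 XY gonads (adjusted p = 0.00013; 2.4% of all probes rose there) and 0.30 ± 0.21 in B6 XY gonads (adjusted p = 0.73). In XX gonads the change averaged over strains was -0.11 ± 0.15 (adjusted p = 0.83), and the XY change exceeded it by 0.84 ± 0.21 (adjusted p = 0.012). That call was lost without 129S1 XY E12.0 replicate 1, the array at 8.90, with a value of 0.66 and an adjusted p of 0.15. At E11.2, B6 XY replicate 1 read 8.23 while the other 3 arrays of its group read 7.47, 7.48 and 7.51. At E11.8 XY minus XX was 0.30 ± 0.15 (adjusted p = 0.35), and the sexes overlapped in both strains. The mean of the XX arrays was 7.81 at E11.8 and 7.47 at E12.0, a step of -0.35 ± 0.15 that did not pass (adjusted p = 0.43).

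The 250 bases before 1 annotated transcript start of Cyp26b1 and of Rarb are shown because one gene removes the signal and the other is a receptor whose promoter carries the textbook binding site for retinoic acid receptors. The sequences are from RefSeq on GRCm38.p6, written along the strand of the gene (minus for both), at chr6:84593811-84594060 for Cyp26b1 and chr14:16575477-16575726 for Rarb. Neither start is the outermost one of its gene, since 98 bases of the Cyp26b1 window and all 250 of the Rarb window lie inside the annotated span of the gene. Capitals mark a DR5 element, a pair of hexamers in the same direction with 5 bases between them, each being AGGTCA or GGGTCA, or else AGTTCA or GGTTCA.
Cyp26b1: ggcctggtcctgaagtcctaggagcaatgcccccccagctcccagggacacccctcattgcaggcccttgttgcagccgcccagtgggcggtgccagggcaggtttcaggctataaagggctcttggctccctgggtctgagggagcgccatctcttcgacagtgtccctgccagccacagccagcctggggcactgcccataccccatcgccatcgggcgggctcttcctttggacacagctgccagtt
Rarb: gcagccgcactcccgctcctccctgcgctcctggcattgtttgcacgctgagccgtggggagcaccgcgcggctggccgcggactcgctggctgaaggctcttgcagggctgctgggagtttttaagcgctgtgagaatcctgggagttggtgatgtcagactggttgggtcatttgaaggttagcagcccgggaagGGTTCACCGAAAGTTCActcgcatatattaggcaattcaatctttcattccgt

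The DR5 element of Rarb, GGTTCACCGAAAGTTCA, spans bases 53 to 37 before the start. On both strands such an element was found before 29 of 32851 mouse starts of the same length, or 0.0883%. The promoter table held 14 starts for 8 of the 9 genes and none for Crabp2, and no other start among the 14 held a DR5 element. None of the 14 held the same hexamers with 2 bases between them (0.174% of all starts) or CAAGGTCA, the site of the gonadal factor Nr5a1 (1.33%). AACAAT, a core that Sox factors bind, was found on the opposite strand before Rarb and before 1 of the 4 starts of Rara (9.42% of all starts). These are matches of letters in a short window, and binding was not measured.

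Rarb lies on chromosome 14 (16430839-17082331, GRCm38.p6) and has 3 probes, of which the one with the highest mean stands for the gene. Its log2 values at E12.0 were 7.23 and 7.48 in 129S1 XY gonads and 7.30, 7.57 and 7.84 in B6 XY gonads. In XX gonads they were 7.64, 7.83 and 8.25 in 129S1 and 7.63, 7.91 and 7.92 in B6. XY arrays lay below XX arrays in 129S1, and the sexes overlapped in B6. All of these values except 8.25 lay within the range read by Y-linked probes on XX arrays. XY minus XX was -0.40 ± 0.11 (n = 5 XY and 6 XX, adjusted p = 0.014). From E11.0 to E12.0 Rarb fell by 0.42 on the log2 scale in XY gonads (SE 0.10, adjusted p = 0.0046). That call was lost without 129S1 XY E12.0 replicate 1, with values from -0.49 to -0.34 over all arrays left out in turn. Within the strains the XY fall passed in 129S1, where the mean went from 8.07 to 7.35. It did not pass in B6, where the mean went from 7.68 to 7.57. The change in XX gonads was -0.20 ± 0.10 (adjusted p = 0.36).

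The probes of Rarb disagreed on sex. Rarb probe 2 gave XY minus XX of -0.18 ± 0.12 at E12.0 (adjusted p = 0.62) and Rarb probe 3 gave 0.03 ± 0.07 (adjusted p = 0.94). With the mean of the 3 probes the value was -0.19 (adjusted p = 0.15), and the call was also lost without 129S1 XX E12.0 replicate 2, 129S1 XY E12.0 replicate 1 or B6 XY E12.0 replicate 2, with values down to -0.32 and adjusted p up to 0.17. Over both sexes together the fall from E11.0 to E12.0 was passed by the first probe (-0.31 ± 0.07, adjusted p = 0.0019) and by Rarb probe 2 (-0.27 ± 0.08, adjusted p = 0.022).

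**Figure D2:**
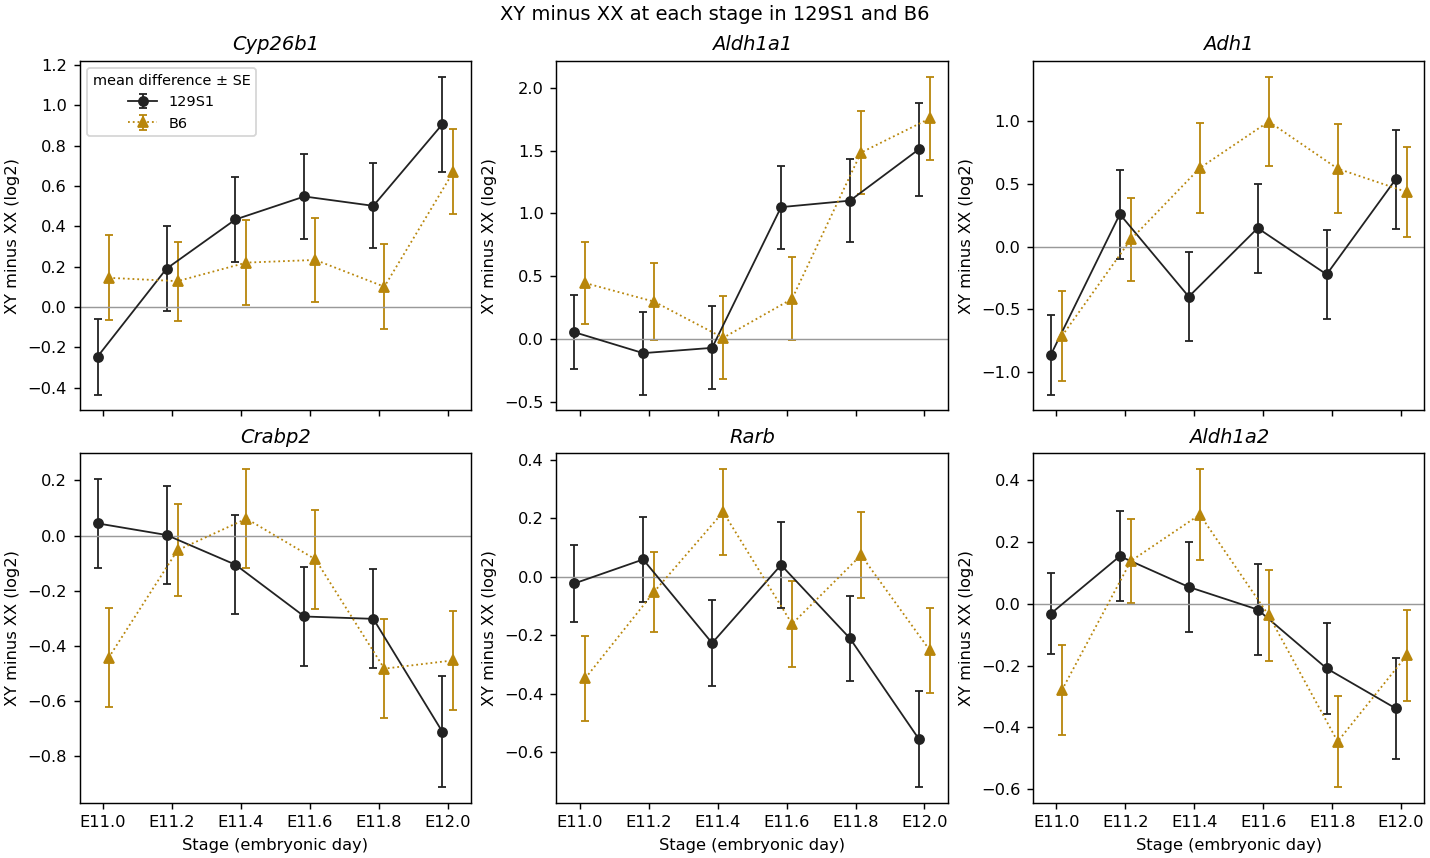
XY minus XX on the log2 scale (y axis, mean difference ± SE from the model) at each stage (x axis) for 6 of the genes, with black circles for 129S1 and gold triangles for B6. Aldh1a1 ends at 1.51 in 129S1 and 1.76 in B6, Cyp26b1 at 0.91 and 0.67, and Crabp2 at -0.71 and -0.45.

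Crabp2, on chromosome 3 (87948693-87953372, GRCm38.p6), carries retinoic acid to its nuclear receptors. At E11.0 its log2 values were 8.76, 8.80 and 9.17 in 129S1 XX gonads, 8.65, 9.39 and 9.47 in B6 XX gonads, 8.60, 8.77, 8.81, 9.23 and 9.35 in 129S1 XY gonads and 8.49, 8.55 and 9.15 in B6 XY gonads. At E12.0 they were 8.15, 8.17 and 8.33 in 129S1 XX gonads, 7.96, 8.08 and 8.38 in B6 XX gonads, 7.38 and 7.64 in 129S1 XY gonads and 7.63, 7.71 and 7.73 in B6 XY gonads. In each of the 4 strain and sex classes every array at E12.0 lay below every array at E11.0, and at E12.0 all 5 XY arrays lay below all 6 XX arrays. The XY values at E12.0 all lay within the range read by Y-linked probes on XX arrays. The fall was 0.86 ± 0.13 on the log2 scale in XX gonads (adjusted p = 1.5e-06) and 1.24 ± 0.13 in XY gonads (adjusted p = 4e-11). XY minus XX at E12.0 was -0.58 ± 0.13 (n = 5 XY and 6 XX, adjusted p = 0.0025), with -0.71 ± 0.20 in 129S1 (adjusted p = 0.031) and -0.45 ± 0.18 in B6 (adjusted p = 0.28), 2 values whose gap of -0.26 had a 95% interval from -0.80 to 0.28. The call in 129S1 was lost without any 1 of its 5 arrays at E12.0 (adjusted p up to 0.58).

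Crabp1, the other cellular binding protein, lies on chromosome 9 (54764748-54773110, GRCm38.p6). Its group means ranged from 7.83 in 129S1 XY gonads at E11.8 to 8.64 in B6 XX gonads at E11.0. Averaged over both sexes it fell from E11.0 to E12.0 by 0.46 on the log2 scale (SE 0.13, adjusted p = 0.013; 6% of all probes fell and 5.11% rose), with -0.57 ± 0.18 in XX gonads (adjusted p = 0.060) and -0.35 ± 0.19 in XY gonads (adjusted p = 0.36). The change in XX gonads passed with either filter on dim probes, with an intensity trend or with array weights (adjusted p between 0.032 and 0.048). XY minus XX at E12.0 was -0.01, with a 95% interval from -0.41 to 0.38. B6 XY E11.2 replicate 1 read 8.97 against 7.84, 7.90 and 8.02 in the rest of its group.

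Adh1, an alcohol dehydrogenase that can oxidize retinol, lies on chromosome 3 (138277585-138290698, GRCm38.p6) and changed more than any other of the 9 genes in XX gonads. At E11.0 its log2 values were 9.24, 9.63 and 10.89 in 129S1 XX gonads and 8.68, 9.23 and 9.92 in B6 XX gonads. At E12.0 they were 7.38, 7.38 and 7.45 in 129S1 and 7.30, 7.53 and 7.67 in B6. All 6 arrays at E12.0 lay below all 6 at E11.0, and the fall was 2.14 ± 0.25 on the log2 scale (adjusted p = 5.2e-09).

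In XY gonads the fall of Adh1 was smaller, from a lower start, with a mean at E11.0 of 8.87 against 9.60 in XX gonads. The values at E11.0 were 8.82, 8.83, 8.93, 9.14 and 9.57 in 129S1 and 8.19, 8.22 and 9.28 in B6, and at E12.0 they were 7.91 and 7.97 in 129S1 and 7.83, 7.92 and 8.06 in B6. The fall was 0.87 ± 0.25 averaged over strains (adjusted p = 0.020), and it passed in neither strain alone. The XY change exceeded the XX change by 1.27 ± 0.36 (adjusted p = 0.034), although XY minus XX passed the test at no single stage. At E12.0 all 5 XY arrays lay above all 6 XX arrays, with a difference of 0.48 ± 0.27 (adjusted p = 0.47). For Adh1 probe 2 the sexes overlapped in 129S1 at that stage and did not in B6. In both sexes all values at E12.0 lay within the range read by Y-linked probes on XX arrays. The falls thus end where a value does not by itself show a transcript. Adh1 probe 2 fell by 1.37 ± 0.19 in XX gonads (adjusted p = 2.3e-07) and by 0.66 ± 0.19 in XY gonads (adjusted p = 0.016), with a gap between these changes of 0.71 ± 0.26 that did not pass (adjusted p = 0.21). The call for the gap was lost when any 1 of 11 arrays was left out, with values from 1.03 to 1.45 over all arrays left out in turn, and the call for the XY fall was lost without either 129S1 XY E12.0 array or without B6 XY E11.0 replicate 1 (adjusted p up to 0.12).

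Adh1 differed between the strains at E11.2. The values at that stage were 8.19, 9.11 and 10.01 in 129S1 XX gonads and 8.68, 9.402 and 10.01 in 129S1 XY gonads, against 8.04, 8.07 and 8.15 in B6 XX gonads and 7.79, 7.83, 7.97 and 8.99 in B6 XY gonads. The highest B6 array is again B6 XY E11.2 replicate 1. The difference of 129S1 from B6 at E11.2 was 1.12 ± 0.24 (adjusted p = 0.0011; 2.17% of all probes were called higher in 129S1 at that stage) and it was 0.92 ± 0.18 for Adh1 probe 2 (adjusted p = 0.00021). In XY gonads the order of the strains was the other way at E11.4, E11.6 and E11.8. The XY means at these stages were 8.08, 7.90 and 7.66 in 129S1 against 8.66, 8.82 and 8.25 in B6, and the strain differences did not pass. In B6 the XY values at E11.6 were 8.45, 8.82 and 9.19 and the XX values 7.42, 7.77 and 8.28, with no overlap. This sex difference of 1.00 ± 0.35 did not pass (adjusted p = 0.92).

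Aldh1a2, on chromosome 9 (71215789-71296243, GRCm38.p6), is the main retinoic acid synthesizing enzyme of the early mouse embryo, and in the fetal gonad region it is known from the mesonephros. At E11.0 its log2 values were 9.07, 9.28 and 9.51 in 129S1 XX gonads, 9.32, 9.402 and 9.77 in B6 XX gonads, 8.94, 9.16, 9.16, 9.45 and 9.56 in 129S1 XY gonads and 9.14, 9.23 and 9.28 in B6 XY gonads. At E12.0 they were 8.54, 8.84 and 8.97, then 8.67, 8.71 and 8.92, then 8.42 and 8.47, then 8.47, 8.48 and 8.85 in the same order. No array at E12.0 reached the lowest array of its own class at E11.0. Aldh1a2 fell by 0.62 ± 0.10 on the log2 scale in XX gonads (1.53-fold, adjusted p = 2.3e-05) and by 0.71 ± 0.11 in XY gonads (1.64-fold, adjusted p = 7.1e-07).

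In XX gonads the fall of Aldh1a2 lay in the first step, from E11.0 to E11.2, with a difference of -0.57 ± 0.10 (adjusted p = 0.030), the lone probe of the array called lower in that step (0.00389% of all probes). That call was lost without any 1 of 6 arrays (adjusted p up to 0.24), with array weights (0.093), with the mean of the gene's probes (0.15) and with the mesonephric markers as a covariate, a setting chosen after seeing the data (0.20). Aldh1a2 probe 2 changed by -0.34 ± 0.12 in XX gonads (adjusted p = 0.088) and fell by 0.44 ± 0.12 in XY gonads (adjusted p = 0.012). XY minus XX at E11.8 was -0.33 ± 0.10 and at E12.0 -0.25 ± 0.11, neither past the test (adjusted p = 0.062 and 0.26), although the value at E11.8 passed with array weights (0.021) and with either filter on dim probes (0.038 and 0.036).

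**Figure D3:**
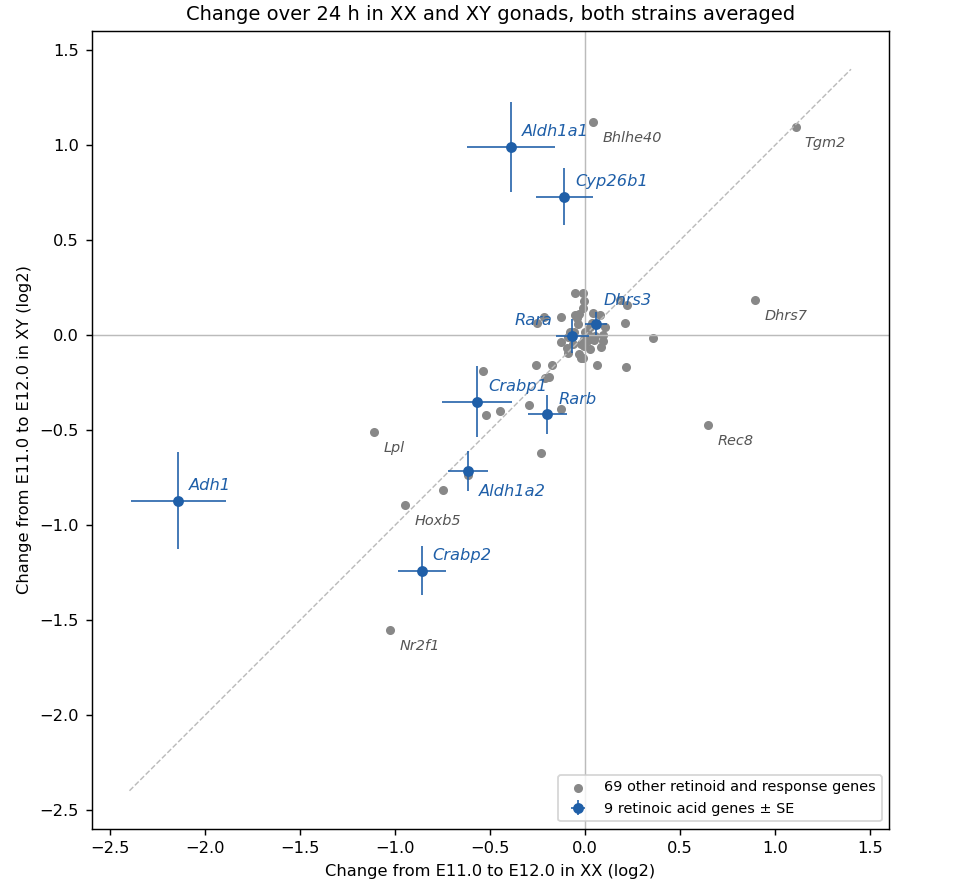
Change from E11.0 to E12.0 on the log2 scale in XX gonads (x axis) against XY gonads (y axis), with both strains averaged, for the 9 genes (blue, ± SE) and 69 other retinoid and response genes (grey), beside the line of equal change (dashed). Adh1 lies far to the left at -2.14 in XX, Aldh1a1 and Cyp26b1 lie above the line at 0.99 and 0.73 in XY, and Crabp2 and Aldh1a2 lie near it in the lower left.

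Of the 9 genes, 3 fell in XX gonads between E11.0 and E12.0 (Adh1, Crabp2 and Aldh1a2; 2.37% of all probes fell) and none rose (2.78% rose). In XY gonads 4 fell (Crabp2, Adh1, Aldh1a2 and Rarb; 4.11% fell) and 2 rose (Aldh1a1 and Cyp26b1; 3.42% rose). The median change of the 9 genes was -0.39 in XX and -0.35 in XY gonads, where the median over all probes was -0.004 and -0.005. At E12.0 the count of genes higher in XY was 2 (2.26% of all probes) and lower 2 (2.62%). Within the strains the counts at E12.0 were 2 higher and 2 lower in 129S1 (1.44% and 1.46% of all probes) and 1 higher and none lower in B6 (1.04% and 0.953%). Without 129S1 XY E12.0 replicate 1 the calls in 129S1 for Cyp26b1, Crabp2 and Rarb were lost, and that for Rarb was lost without any 1 of 4 arrays (adjusted p up to 0.72). The XY change was above the XX change for 3 (1.32%) and below it for none (1.17%), Adh1, Aldh1a1 and Cyp26b1 being the 3.

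Beside these falls, the 9 measured markers of mesonephric tubule and duct had a mean log2 level between 7.26 and 7.68 on XX arrays at E11.0 and between 7.30 and 7.57 at E12.0, and between 7.25 and 7.49 and between 7.24 and 7.44 on XY arrays. Of these markers 1 fell in XX gonads (Wnt9b) and 1 rose in XY gonads (Lhx1). All 9 had means over the 74 arrays within the range read by Y-linked probes on XX arrays. With their mean level as a covariate, a setting chosen after seeing the data, the falls of Adh1, Crabp2 and Aldh1a2 passed in both sexes. Their adjusted p was at most 0.046 over 11 settings that kept every array. Markers in that range cannot show how much mesonephric tissue an array held, so its part in the falls was not tested. Among 5 markers of interstitial mesenchyme, Nr2f1 fell and Pdgfra rose in both sexes, and Tcf21 was higher in XY gonads at E12.0 by 0.76 ± 0.15. Germ cell markers rose, 2 of 6 in XX gonads (Dazl and Dppa3) and 3 of 6 in XY gonads (Dazl, Dppa3 and Dppa5a), and none differed by sex at E12.0. With the mean level of the interstitial markers as a covariate, a setting chosen after seeing the data, the falls of Adh1, Crabp2 and Aldh1a2 passed in both sexes (adjusted p up to 0.046), and the gap between the sexes in Adh1 did not (1.17, adjusted p = 0.054). Because Nr2f1 fell while Pdgfra rose, that mean level cannot measure the share of interstitial cells. The part of interstitial cells and of germ cells was not tested.

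The 2 remaining genes changed little. Rara, on chromosome 11 (98927800-98974942, GRCm38.p6), had group means between 7.34 and 7.63, and XY minus XX at E12.0 was -0.03 with a 95% interval from -0.22 to 0.15. Its change from E11.0 to E12.0 was -0.07 ± 0.09 in XX and -0.004 ± 0.09 in XY gonads. Dhrs3, on chromosome 4 (144892534-144928209, GRCm38.p6), had group means between 7.02 and 7.24, within the range read by Y-linked probes on XX arrays. It was lower in 129S1 than in B6 by 0.10 ± 0.02 averaged over sexes and stages (adjusted p = 0.0018; 7.57% of all probes were lower), with 0.14 ± 0.03 in XY gonads (adjusted p = 0.0033; 5.14% of all probes) and a difference of -0.06 ± 0.03 in XX gonads (adjusted p = 0.38).

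Cyp26b1 and Rarb were higher in 129S1 than in B6 (7.85% of all probes were higher). The difference averaged over sexes and stages was 0.17 ± 0.06 for Cyp26b1 (adjusted p = 0.046) and 0.13 ± 0.04 for Rarb (adjusted p = 0.020). Neither held throughout. The Cyp26b1 call was lost without any 1 of 39 of the 74 arrays, and the other probes of Rarb gave -0.05 ± 0.05 and 0.02 ± 0.03 (adjusted p = 0.57 and 0.72). For Aldh1a1 the strain difference was -0.01, with a 95% interval from -0.20 to 0.18. Markers of other cells also differed between the strains. Higher in 129S1 were 5 of 6 germ cell markers (Dazl by 1.10 ± 0.07) and 3 of 5 endothelial markers. So were Sox9, Amh and Dhh of the somatic markers, Lhx1 of the mesonephric ones, Alas2 of red blood cells and Mrc1 of macrophages. Lower in 129S1 were Wt1 of the somatic markers, Col1a2 of the interstitial ones and Lyz2 and Fcer1g of macrophages. The part of such cells in the strain differences of these genes was not tested.

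**Figure D4:**
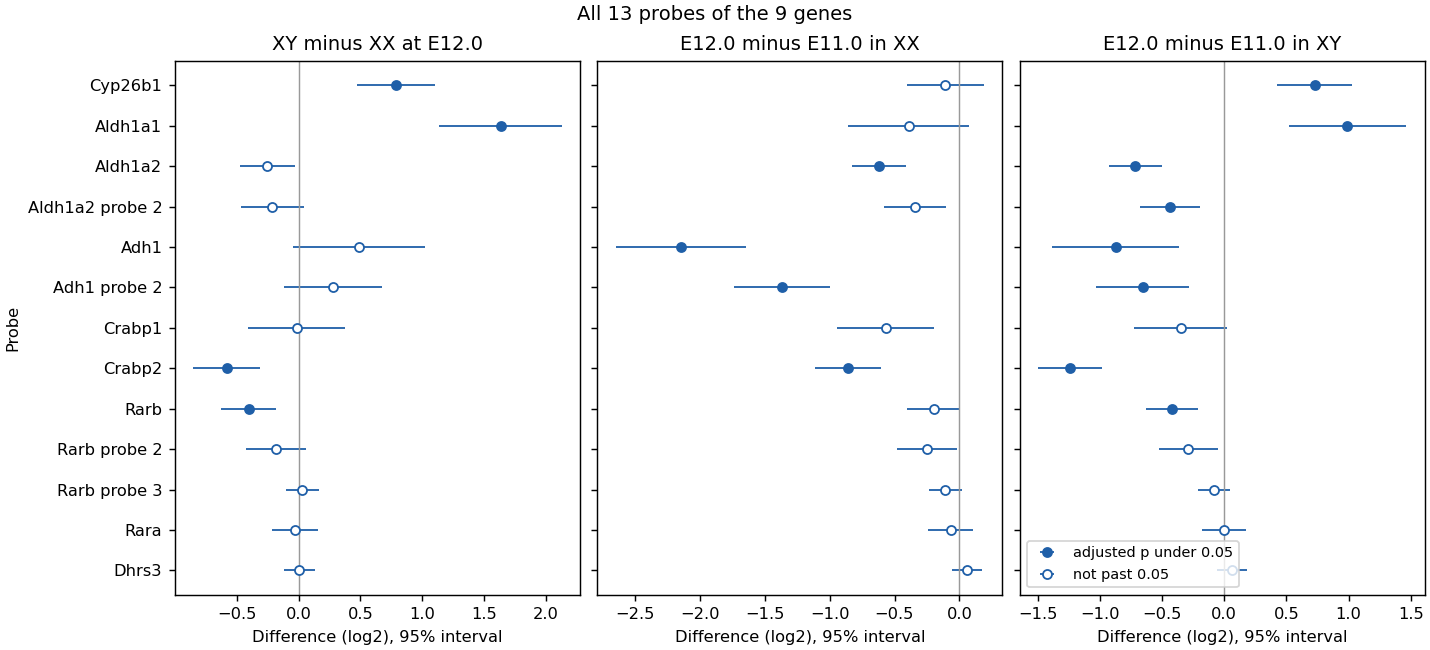
Difference on the log2 scale with its 95% interval (x axis) for each of the 13 probes (y axis), as XY minus XX at E12.0 (left), E12.0 minus E11.0 in XX (middle) and in XY (right), where filled points have an adjusted p under 0.05. Both probes of Adh1 pass in XX and XY, and of the 3 probes of Rarb 1 passes for sex at E12.0.

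The rest of the pathway was read from 80 further genes, of which 69 had a probe. At E12.0 3 were higher in XY gonads and 5 lower (2.26% and 2.62% of all probes), with a median difference of -0.02. From E11.0 to E12.0 4 rose and 7 fell in XX gonads (2.78% and 2.37% of all probes) and 2 rose and 9 fell in XY gonads (3.42% and 4.11%). Of the genes named from these lists, Aox3, Dhrs9, Cyp26a1, Rxrg and Stra8 had means over all arrays between 7.04 and 7.38, within the range read by Y-linked probes on XX arrays. Among 12 genes of uptake and storage, Lpl, a lipase that can free retinol from its esters, fell by 1.11 ± 0.10 in XX and 0.51 ± 0.10 in XY gonads and was higher in XY at E12.0 by 0.59 ± 0.11 (adjusted p = 6.2e-05). Ces1d, a carboxylesterase, was higher in XY gonads over all stages by 0.22 ± 0.05 (adjusted p = 0.00069). Among 25 enzymes of oxidation and reduction, none was higher in XY gonads at E12.0 and 3 were lower, Dhrs7 by 0.64 ± 0.14 (adjusted p = 0.00086), Aox3 by 0.35 ± 0.07 (adjusted p = 0.00022) and Dhrs9 by 0.18 ± 0.06 (adjusted p = 0.0496). Dhrs7 is a short-chain dehydrogenase and Aox3 an aldehyde oxidase, and both rose in XX gonads, by 0.90 ± 0.13 and 0.36 ± 0.06. Over both sexes Aldh1a3, a further retinaldehyde dehydrogenase, rose by 0.19 ± 0.05 and Rdh11, a retinal reductase, fell by 0.20 ± 0.07 (adjusted p = 0.0064 and 0.049). Cyp26a1, a close relative of Cyp26b1, had XY minus XX of 0.03 at E12.0 (adjusted p = 0.93).

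Among 6 other receptors and binding proteins, Rxrg, a retinoid X receptor, was higher in XY gonads at E12.0 by 0.20 ± 0.06 (adjusted p = 0.035), and Rxrb fell in XY gonads by 0.39 ± 0.13 (adjusted p = 0.044). None of 6 coregulators passed for sex at E12.0 or for change in either sex, and over both sexes Ncoa1 rose by 0.18 ± 0.06 (adjusted p = 0.028). Among 18 genes known to respond to retinoic acid, 2 rose and 6 fell in XX gonads (2.78% and 2.37% of all probes). In XY gonads 2 rose and 7 fell (3.42% and 4.11% of all probes). Rec8, a meiotic cohesin, rose in XX gonads by 0.65 ± 0.14 and fell in XY gonads by 0.47 ± 0.14, and was lower in XY at E12.0 by 1.23 ± 0.15 (adjusted p = 3.9e-09). Stra8, the gene that starts meiosis, had XY minus XX of -0.14 ± 0.08 (adjusted p = 0.45). Bhlhe40, a transcriptional repressor, rose in XY gonads by 1.12 ± 0.16 and was higher in XY at E12.0 by 1.16 ± 0.17 (adjusted p = 6.7e-07), and Rarres2, which encodes chemerin, was lower by 0.46 ± 0.11 (adjusted p = 0.0024).

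Of the homeobox genes of that list, Hoxb5, Meis2, Pbx2 and Pbx3 fell in both sexes, Hoxb4 passed in XX gonads alone and Meis1 in XY gonads alone, and the differences between the sexes in these changes did not pass. Hoxb5 fell by 0.95 ± 0.13 in XX and 0.90 ± 0.13 in XY gonads, Meis2 by 0.75 ± 0.14 and 0.81 ± 0.14, and Pbx2 by 0.62 ± 0.09 and 0.74 ± 0.09. The nuclear receptor Nr2f1, which is also on the list of interstitial markers, fell by 1.03 ± 0.21 and 1.55 ± 0.22. Tgm2, a transglutaminase, rose by 1.11 ± 0.14 and 1.10 ± 0.14.

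Across the 24 group means Crabp2 and Aldh1a2 had a Pearson r of 0.91. The genes most like a member, by highest r, were sought among named probes in the brighter 50% by mean. Crabp2 was one of the 3 genes most like Aldh1a2 there. The genes most like Crabp2 were Eno3 (r = 0.95), Hoxb5 (0.94) and Flrt3 (0.94). Those most like Cyp26b1 were Fbln2, Tacc1 and St3gal4 (0.90 each), and those most like Aldh1a1 were Pitpnm2 (0.90), Acvr1 (0.88) and Cbln4 (0.87). For Adh1 they were Sncg, Angpt2 and Mc2r (0.86 each), for Rarb Eif4e3 (0.89), 1700088E04Rik (0.88) and G6pc2 (0.87), and for Dhrs3 Usp53 (0.87), Chek2 (0.85) and Gpr180 (0.84). Cyp26b1 and Aldh1a1 had an r of 0.57 with each other and Cyp26b1 and Crabp2 one of -0.67. The group means share arrays, strains and stages, so these values describe likeness of course and carry no p.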

How the data were processed

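The deposited values are log2 intensities from Illumina MouseRef-8 v2.0 arrays; the authors extracted raw values with GenomeStudio and quantile normalized and log2 transformed them with beadarray (R 2.12.0 in the submitters' notes). They were used as they stand. A further deposited file with 74 intensity and 74 detection p-value columns before normalization was not used, because its columns could not be paired with samples, so detection, background and slide were not analysed. Arrays give no depth, and their number limits the precision.

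A model of 24 group means was fitted with limma 3.58.1 in R 4.3.3 (data.table, version 1.17.8) to all 25697 probes (50 residual degrees of freedom), checked on simulated data, with Benjamini-Hochberg adjustment over all probes. Values after ± are model SEs. No probe was filtered out. Other scalings, filters, array weights, a replicate block, probe averages, each array left out and, chosen after seeing the data, marker covariates were tried. Symbols came from the platform annotation (23978 probes with 1 symbol, 1719 with none; 23962 matched by gene identifier to GRCm38.p6). Plots used Python 3.11.15 and matplotlib 3.10.9.

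The 9 genes and the gene lists were chosen with earlier results of these data known. The gene's probe with the highest mean over 74 arrays reports it. From each list, up to 4 genes past the threshold with the smallest adjusted p of the sex by stage term, the sex term or of the E12.0 minus E11.0 difference were named, and the 3 genes with the highest r to a member. Stra8, Cyp26a1, Dhrs9, the other homeobox genes and the marker genes were named after their values were seen.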

Additional observations from a re-analysis of the deposited data

Results flagged for a closer look

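On 1 array, B6 XY E11.2 replicate 1, 4 of the 9 genes lay farther from the other 3 arrays of the group than the 95% limit of Dixon's test. Cyp26b1 read 8.23 (next array 7.51), Crabp1 8.97 (8.02), Crabp2 8.69 (8.24) and Adh1 8.99 (7.97). The test was made in 18 pairs of gene and group with 4 or 5 arrays, where chance flags about 1 in 20, and the 4 values come from the same array. On it Aldh1a1 read 7.87, below 8.52, 8.85 and 9.22. The array lay above the other 3 for 4 of 5 interstitial mesenchyme markers (mean level 10.71 against at most 10.49), 4 of 5 endothelial markers (8.38 against at most 8.12) and 3 of 3 macrophage markers (8.41 against at most 8.01), and for 1 of 9 mesonephric markers. It was above the other 3 for 30.2% and below them for 32.4% of all probes.

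For 3 genes the sexes changed by different amounts over the day, by the test of that difference, as XY change minus XX change: Aldh1a1 by 1.38 (adjusted p = 0.0072), Cyp26b1 by 0.84 (adjusted p = 0.012) and Adh1 by 1.27 (adjusted p = 0.034).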

How the results depend on the processing

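No result past the threshold turned its direction under any alternative. The replicate number as a block gave 2 genes instead of 1 for the sex by stage term and took Adh1's XY change minus XX change to an adjusted p of 0.066. Same-numbered XX and XY arrays correlated above 0.1 in 20 of 35 pairs (-0.45 to 0.67), and 14 XX arrays correlated best with their own number. The mean correlation was 0.12 for same-numbered pairs and -0.05 for pairs of different number. The numbers were not taken to pair the arrays in the main model, and what same-numbered arrays may share was not tested. The block ended no other call and gave 5, for Crabp1's change in XX (adjusted p = 0.034), Aldh1a2 and Crabp2 by sex at E11.8 (0.034 and 0.029), Rarb by strain in XX (0.0498) and Aldh1a2's step from E11.6 to E11.8 in XY (0.040). Array quality weights also gave 2 genes for sex by stage, 1 instead of 0 for stage by strain, and an adjusted p of 0.093 for the first step of Aldh1a2 in XX. The mean of a gene's probes left 1 gene instead of 2 lower in XY at E12.0. Leaving out each array gave 1 to 2 genes lower in XY at E12.0, 3 to 4 lower over time in XX, 2 to 4 in XY, 1 to 3 with a larger XY change, and 3 to 4, 2 to 3, 5 to 7, 1 to 2 and 0 to 1 for the sex, strain, stage, sex by stage and stage by strain terms. Without 129S1 XY E12.0 replicate 1, whose lone partner is then assumed to vary like other groups, the counts were lowest for 3 of these (1 lower in XY at E12.0, 2 lower over time in XY, 1 with a larger XY change). Without B6 XY E11.2 replicate 1, 1 gene passed stage by strain. Cyclic loess took Cyp26b1 for strain to an adjusted p of 0.058 and Rarb at E12.0 in 129S1 to 0.082. The filter that kept the 12849 brighter probes left out Dhrs3. Background correction and the slide as a block could not be run, since the raw columns have no samples. The causes were not tested.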
